A study of Mus musculus with 6 samples.

Results

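The Mir290 cluster is a group of 7 microRNA hairpins in tandem on the plus strand of mouse chromosome 7, and in these data it is marked by 5 Spt16 regions and by no Oct4 or Jmjd1c region. Its members were found by name. Each region was taken whose row in the deposited gene tables names Mir290, Mir291a, Mir292, Mir291b, Mir293, Mir294 or Mir295. That gave 5 of the 1542 regions in the 3 lists: 5 of 1253 for Spt16, 0 of 265 for Oct4 and 0 of 24 for Jmjd1c. The members were therefore chosen by being called as enriched over input, a readout of these same libraries, so their reads and scores are given as a description without a test.

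The series sequenced DNA bound by immunoprecipitated proteins (ChIP-seq) from tet-ON Oct4 embryonic stem cells, C57BL/6 in strain, in which doxycycline switches on an Oct4 gene. All cells had first been differentiated with retinoic acid and then received PBS or doxycycline. The libraries used here came from cells given doxycycline for 10 h: 1 with an antibody to Oct4, the pluripotency transcription factor; 1 with an antibody to Spt16, the larger subunit of FACT, a histone chaperone; 1 with an antibody to Jmjd1c, a chromatin protein with a Jumonji (JmjC) domain; and 1 of input chromatin. The 0 h Oct4 and input libraries were not analysed here. The totals in the file headers were 36669596 reads for Spt16, 15543450 for Oct4, 26736842 for Jmjd1c and 14592994 for the input. With 1 library a group, intervals cover counting error only, and nothing below measures the spread between cultures. The labels do not say how many clones or cultures lay behind a library, and DNA occupancy does not give the marker genes needed to check how far the cells had differentiated.

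MicroRNAs are cut from hairpins in a longer primary transcript and lower the output of messenger RNAs that pair with their seed, the bases near the 5′ end. In mouse embryonic stem cells the miR-290 family is among the most abundant microRNAs, is made from a single primary transcript, and promotes the rapid cell cycle of these cells. Its genes fall silent as cells differentiate, and in undifferentiated cells Oct4, Sox2 and Nanog are known to bind near its promoter. FACT takes histones off DNA and puts them back, and is best known for helping RNA polymerase II pass nucleosomes.

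The products of the cluster are shown here to compare the seeds of its 7 hairpins, of which some lie under the Spt16 regions and some do not. All sequences are from RefSeq (GRCm38.p6), matched by symbol or synonym, and capitals mark the seed, bases 2 to 8 from the 5′ end. Of the 3′ arms, miR-292a-3p is named only, and the other 6 mature products are:
miR-290a-3p: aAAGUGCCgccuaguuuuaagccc
miR-291a-3p: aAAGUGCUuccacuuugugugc
miR-291b-3p: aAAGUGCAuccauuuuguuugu
miR-293-3p: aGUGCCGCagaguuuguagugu
miR-294-3p: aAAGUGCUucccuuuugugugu
miR-295-3p: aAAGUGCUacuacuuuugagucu
For comparison, a product of the Mir302 cluster, the other microRNA cluster typical of pluripotent cells, and of the Mir17 cluster, which acts in proliferation, are:
miR-302d-3p: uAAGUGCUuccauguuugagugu
miR-17-5p: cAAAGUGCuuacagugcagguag

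miR-291a-3p, miR-294-3p and miR-295-3p carried the identical 7-base seed AAGUGCU. The RefSeq table had no entry for miR-292a-3p, so seed counts cover only the names it lists and may be too low. Among its 1679 distinct mature names, 5 had the seed AAGUGCU, and the others were miR-302b-3p and miR-302d-3p. The first 6 bases of that seed, AAGUGC, opened the seed of 5 of the 6 3′-arm products listed, all but miR-293-3p, and of 8 mature names in the whole table. In miR-17-5p the same 6 letters lay 1 base further from the 5′ end. Of the 7 5′-arm products, 3 shared a seed and are shown because they join the hairpin under the Mir293 region to Mir290 and Mir292:
miR-290a-5p: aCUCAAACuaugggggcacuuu
miR-292a-5p: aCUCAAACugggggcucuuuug
miR-293-5p: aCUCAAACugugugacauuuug
These 3 were the only mature names in the table with the seed CUCAAAC. The seeds of miR-294-5p (CUCAAAA) and miR-295-5p (CUCAAAU) had the same first 6 bases, and miR-291a-5p and miR-291b-5p carried a different seed, AUCAAAG.

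The 5 regions lay in a row over 4328 bp, from 3217877 to 3222205 on chromosome 7 (mm9), and covered 59.5% of that span. They are named here by the nearest deposited gene start. From upstream to downstream these are the Mir290 region, the Mir291b region, the Mir293 region, and the first and the second region beyond Mir295. The 7 hairpins themselves span 2215 bp, from 3218626 to 3220841, so the row began 749 bp before the first hairpin and ended 1364 bp after the last. For each region the authors deposited reads for its best window only, about 200 bp wide, so the reads under the rest of a wide region are not known.

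The Mir290 region (3217877 to 3219111) was the strongest member. Its best window held 63 Spt16 reads and 0 input reads, or 1.72 RPM (reads scaled to the library total). With the input set at a limit of 3 reads (0.206 RPM), the ratio was 8.36-fold. Ratios to that limit take the Spt16 reads as exact and leave out their counting error. The best window lay from 3218248 to 3218448, ending 178 bp upstream of the Mir290 hairpin, in sequence where the deposited table names no gene. The region as a whole ran on over the complete Mir290 and Mir291a hairpins.

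The Mir291b region (3219527 to 3219895) held 46 Spt16 reads (1.25 RPM) and was the only member with an input read, 1, for an 18.3-fold ratio of RPM with a 95% counting interval of 3.13 to 739. Its best window, from 3219646 to 3219846, began 86 bp downstream of the Mir291b hairpin. The Mir293 region (3220118 to 3220663) also held 46 Spt16 reads, against 0 input reads, or 6.10-fold over the limit of 3 input reads. The 18.3-fold ratio takes the 1 input read as counted, so it cannot be ranked against ratios to the limit of 3. With 1 added to both counts, the order was reversed, at 9.65-fold for the Mir291b region and 19.3-fold for the Mir293 region. Its best window, from 3220289 to 3220481, contained the whole Mir293 hairpin, the only hairpin of the 7 inside a best window. The middle of the Mir293 region was 47 bp from the Mir293 start, the closest approach of any member to a gene start.

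The first region beyond Mir295 (3221213 to 3221442) held 28 reads, or 0.764 RPM, and the second (3222005 to 3222205) held 27 reads, or 0.736 RPM, each against 0 input reads. Over the limit of 3 input reads, the ratios were 3.71-fold for the first and 3.58-fold for the second. The first lay between the last hairpin and Nlrp12, a gene of the NOD-like receptor family, ending 68 bp short of the far end of that gene. The second began 495 bp inside the deposited Nlrp12 interval (3221510 to 3249740, minus strand), near its 3′ end and 27635 bp from its start. Whether that point is exon, intron or UTR was not resolved, since the deposited table gives gene intervals only.

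**Figure D1:**
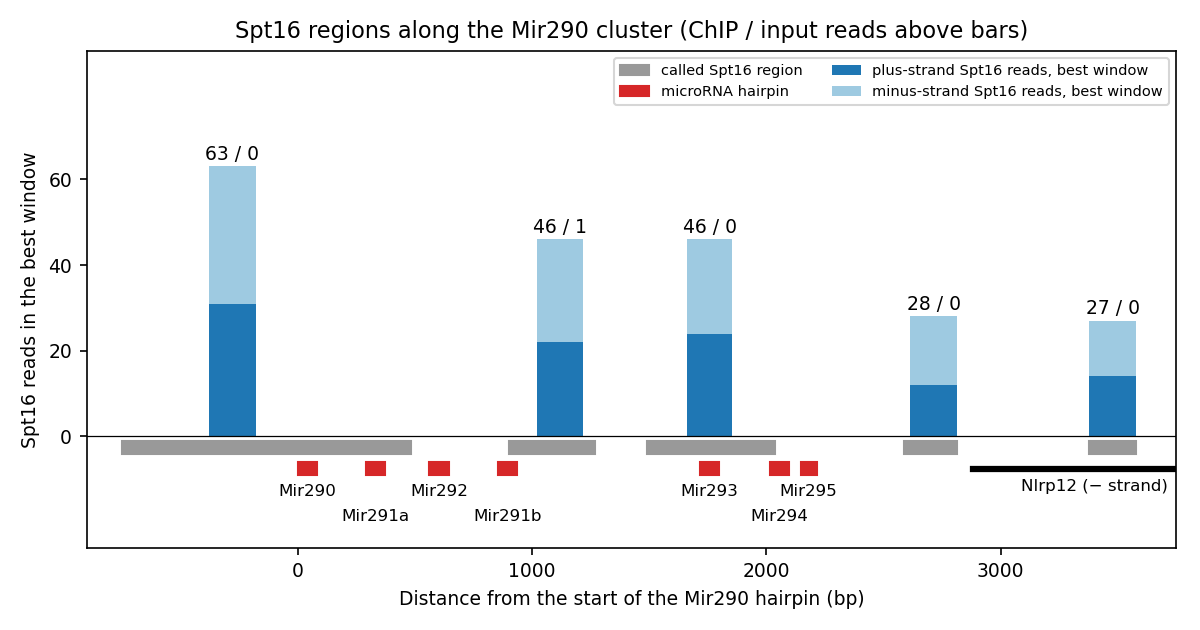
Map of the 5 Spt16 regions (grey) and the 7 microRNA hairpins (red), by distance in bp from the start of the Mir290 hairpin; bars give Spt16 reads in each best window by strand, with ChIP and input reads above them. Reads are highest upstream of Mir290 (63) and lowest in the regions beyond Mir295 (28 and 27).

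In the direction of transcription the reads ran from 63 through 46 and 46 to 28 and 27, in best windows of 192 to 201 bp. The best window was picked from the windows merged into a region, 125 at the Mir290 region against 2 and 1 beyond Mir295, and the regions beyond Mir295 lie just above the lowest count listed, so the differences in reads between members are given without a test. The Mir290 region had 2.25 times the reads of the first region beyond Mir295 (counting interval 1.42 to 3.65), 2.33 times those of the second (1.46 to 3.81) and 1.37 times those of the Mir291b or the Mir293 region (0.922 to 2.05). The plus strand carried 31 of 63, 22 of 46, 24 of 46, 12 of 28 and 14 of 27 reads in order along the cluster. These shares ran from 42.9% to 52.2%, and each exact interval included an even split.

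The regions did not follow the hairpins one for one. Of the 7 hairpins, 3 (Mir290, Mir291a and Mir293) lay wholly inside a region, 2 were cut by a region's edge, and 2 (Mir292 and Mir295) lay outside. Mir292 (3219189 to 3219270) began 78 bp past the end of the Mir290 region, and Mir295 (3220773 to 3220841) began 110 bp past the end of the Mir293 region. Mir291b (3219482 to 3219560) had its last 34 bases in the Mir291b region, and Mir294 (3220641 to 3220724) its first 23 bases in the Mir293 region. Whether region positions count from 0 or 1 is not stated, so these edges are known to within 1 base. The 3 hairpins are shown to place the edges against the mature products. In the first, capitals mark both mature arms. In the others, capitals mark the part inside a region, which takes in all of miR-291b-3p but only the start of miR-294-5p:
Mir293 hairpin: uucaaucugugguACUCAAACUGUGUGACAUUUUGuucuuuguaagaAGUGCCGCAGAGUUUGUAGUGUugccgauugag
Mir291b hairpin: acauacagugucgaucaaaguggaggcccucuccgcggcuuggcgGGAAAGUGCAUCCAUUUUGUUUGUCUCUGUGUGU
Mir294 hairpin: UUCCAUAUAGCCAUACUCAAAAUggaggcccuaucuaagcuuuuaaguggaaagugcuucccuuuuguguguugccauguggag

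The gaps between neighboring regions were 416, 223, 550 and 563 bp. Sonicated fragments were 250 to 750 bp long, per the labels, so each gap was shorter than the longest fragments, and the 5 regions are not 5 independent measurements.

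The Mir290 region was the widest of all 1253 Spt16 regions, at 1234 bp. The next widest, on chromosome Y beside no listed gene, measured 837 bp, and the median was 289 bp. It was also built from the most enriched windows, 125, against 66 for the next, a region beside U4 small nuclear RNA genes on chromosome 5, and a median of 5. In reads at its best window it was far less extreme, in place 115 of 1253 with 1.70 times the median of 37 reads. The region upstream of Pou5f1, the Oct4 gene, had 170 Spt16 reads in its best window but was 569 bp wide with 48 windows. The Mir293 region took place 28 by width and place 25 by windows, and the Mir291b region places 258 and 214. The regions beyond Mir295 were small, 229 and 200 bp, made of 2 windows and 1 window.

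**Figure D2:**
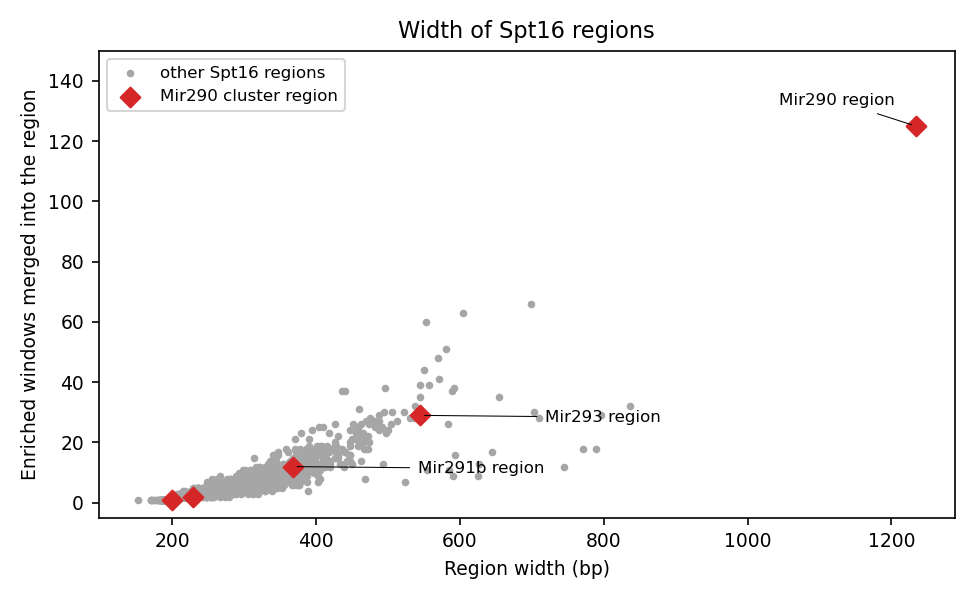
Width in bp and number of merged enriched windows for each Spt16 region, with the 5 Mir290 cluster regions as red diamonds. The Mir290 region stands alone at 1234 bp and 125 windows; the others lie within the range of the remaining regions.

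The row also held more regions than any other run at gaps of up to 5 kb. Each of the 5 members had another Spt16 region within 1 kb, which held for 2.39% of all Spt16 regions (30 of 1253, members included). The rule gathered regions around the cluster, so nearness among members follows in part from it. Joining Spt16 regions across gaps of at most 1 kb gave 13 runs, of which 11 held 2 regions, 1 held 3, at Malat1, a long noncoding RNA gene on chromosome 19, and 1 held 5, at Mir290. With gaps of up to 5 kb the Mir290 run was still the only one of 5, and the remaining 54 of the 55 runs held 2 or 3. With gaps of up to 10 kb, 1 other run reached 5 regions, at replication-dependent histone genes around Hist1h1d on chromosome 13, spread over 29940 bp with 175 reads in all, against 4328 bp and 210 reads at Mir290. Outside the row, the nearest other Spt16 region lay 125.9 kb away, near Cacng7, a calcium channel subunit gene, with 39 reads against 1.

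By the authors' binomial score, a negative log of the p-value of ChIP against input reads, the members spread over much of the list. The Mir290 region took place 76 of 1253, the Mir293 region place 216 and the Mir291b region place 387. The regions beyond Mir295 took places 951 and 1037, in the lower part of the list, where 26 reads was the lowest count listed with 0 input reads. Of the members, 4 of 5 had no input read, as did 68% of all Spt16 regions. The Mir291b and Mir293 regions had equal ChIP reads, and the single input read set the difference in score between them (55.4 and 66.9).

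**Figure D3:**
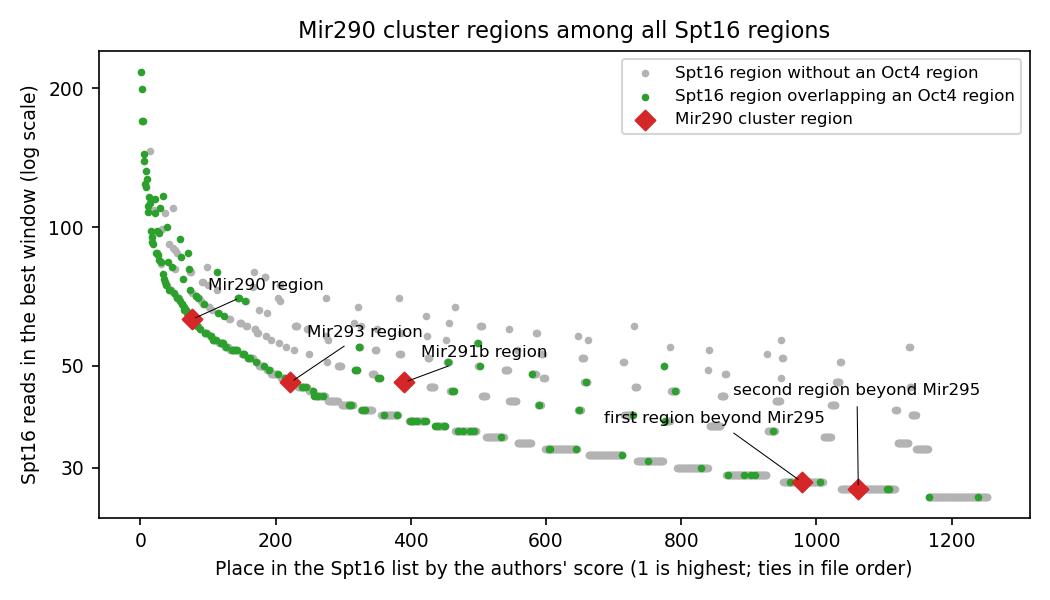
Spt16 reads in the best window (log scale) by place in the Spt16 list, for regions with (green) and without (grey) an overlapping Oct4 region and for the Mir290 cluster (red diamonds). The members run from the upper list to near its end, and no member overlaps an Oct4 region.

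No member overlapped an Oct4 region (0 of 5, against 13.4% of all Spt16 regions) or a Jmjd1c region (0 of 5, against 1.12%). For Oct4, the share among other Spt16 regions depended on their score. Of the 75 others that scored at least as high as the Mir290 region, 56 overlapped an Oct4 region (74.7%), so the Mir290 region belonged to a minority of 20 there. The 19 others without Oct4 included regions beside small nuclear RNA genes, U4 (299 bp), U5 (552 bp) and U1 (658 bp). Another lay 4050 bp from Sox2 (89 reads against 2), and most of the 19 had other genes nearest. Of the 51 regions within 25 places of the Mir290 region, 27 overlapped an Oct4 region (52.9%). The share was 43.8% (99 of 226) at or above the Mir293 region and 30.6% (121 of 396) at or above the Mir291b region. At the regions beyond Mir295 it was 16.2% and 14.9%. These shares take in the whole top of the list and were lower among regions near in score. Within 25 places of the Mir293 region 7 of 53 overlapped an Oct4 region (13.2%), and of the Mir291b region 8 of 40 (20%). Near the regions beyond Mir295 it was 3 of 83 (3.61%) and 3 of 94 (3.19%). Around each member but the Mir290 region, most regions of like score thus had no Oct4 region. For Jmjd1c the share was 14.7% (11 of 75) at or above the Mir290 region, but 1 of 51 within 25 places of it. The nearest Oct4 region on chromosome 7 was 9.53 Mb from the cluster, and the nearest Jmjd1c region 3.14 Mb away.

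**Figure D4:**
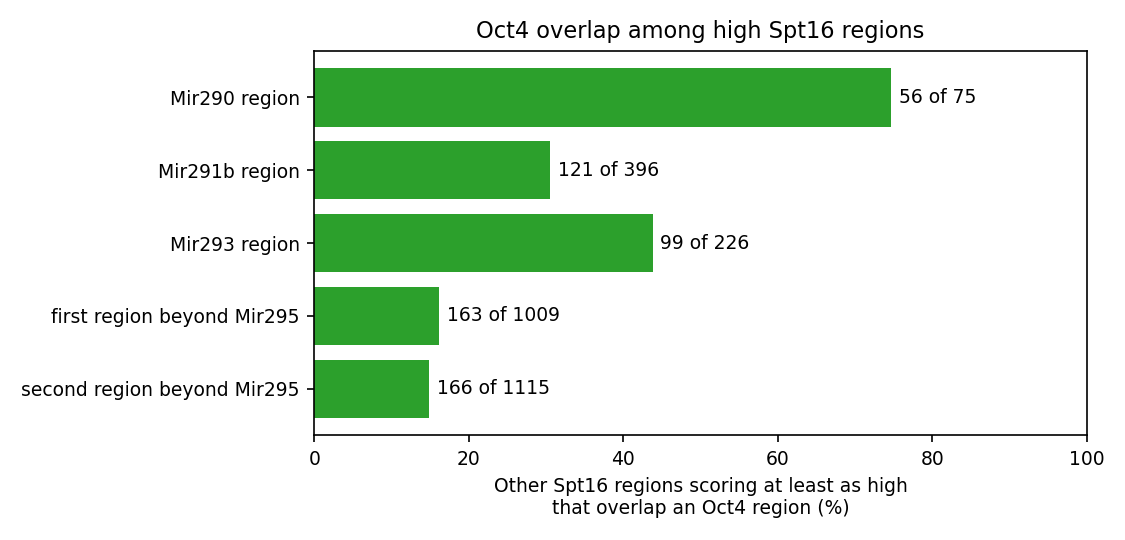
For each Mir290 cluster region, the percentage of other Spt16 regions with an equal or higher score that overlap an Oct4 region, with counts beside the bars. The percentage is highest at the score of the Mir290 region (56 of 75).

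The depth of the Oct4 library limits what this absence can show. At the same RPM as Spt16, the Mir290 region would have held 26.7 Oct4 reads, the Mir291b and Mir293 regions 19.5 each, and the regions beyond Mir295 11.9 and 11.4. The lowest Oct4 count listed was 15 reads with 0 input reads and 19 with 1. Equal RPM would thus have placed the 3 upstream members at or above the lowest listed count, and the regions beyond Mir295 below it. The Mir291b region would have passed only narrowly, at 19.5 reads against 19. The libraries used different antibodies, so equal RPM need not mean equal occupancy. Oct4 reads at the cluster were not analysed here, so the Oct4 level there is known only as not listed. For the Mir290 region to fall under the lowest listed Oct4 count, its ratio of Spt16 to Oct4 RPM would have to exceed 1.78. At the 168 Spt16 regions with an Oct4 region, that ratio was above 1.78 at 10 (5.95%), with a median of 1.14 and a range of 0.518 to 2.80. Those regions had to be called in both lists, which keeps high ratios out. For the Mir293 region the ratio needed was 1.30, exceeded at 57 of the 168, and for the Mir291b region 1.03, exceeded at 108. Besides, 10 regions found in uninduced cells had been removed from the Oct4 list per the file headers, and 21 rank numbers were absent from it; regions at those places were not analysed here. For Jmjd1c, the Mir290 region would have held 45.9 reads at equal RPM and the Mir291b and Mir293 regions 33.5. The lowest listed counts were 23 with 0 input reads and 29 with 1. The regions beyond Mir295 would have held 20.4 and 19.7 reads, below the lowest count listed. Rank numbers in the Jmjd1c list ran to 52, and 28 of them were absent, so regions at those places were not analysed here either.

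Other microRNA genes were named by fewer regions each. In the Spt16 list, 41 regions (3.27%) named a microRNA within 50 kb, 5 of them the members, and 49 microRNA genes were named, 7 of them in the cluster. Among Oct4 regions the share naming a microRNA was 2.26% (6 of 265), and among Jmjd1c regions 4.17% (1 of 24), none of them in the cluster. Counted by gene, 3.91% of the 1228 microRNA genes in the RefSeq table had a Spt16 region within 50 kb, 0.57% an Oct4 region and 0.0814% a Jmjd1c region. Each cluster gene was named by 5 regions, and no other microRNA gene by more than 3. Within 5 kb the count was 12 microRNA genes, beside 1228 in the RefSeq table, and no share over all genes was worked out at that distance. The 7 cluster genes were among the 12 by the rule that chose the members. The other 5 included Mir92b, 1108 bp from its Spt16 region (33 reads against 1), and Mir150, 3122 bp away (26 against 0). The gene with 3 regions was mmu-mir-703, with 28 to 31 reads each and the nearest 482 bp away. The microRNA genes with the highest-scoring Spt16 regions were farther off. Mir1905, 35682 bp from a region of 85 reads, was the only microRNA gene named in all 3 lists. Mir296 and Mir298 lay 5604 and 6064 bp from a region of 73 reads that overlapped an Oct4 region of 20 reads. In all, 7 microRNA genes were named in the Oct4 list and 1 in the Jmjd1c list, none within 5 kb.

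The 17 microRNA genes of other clusters enriched in embryonic stem cells included Mir302a to Mir302d, Mir367, and the Mir17, Mir106a and Mir106b clusters. None had a region within 50 kb in any list. Over all microRNA genes the share was 3.91% for Spt16 and 0.57% for Oct4. With 17 genes, none is near those shares and is not read as a difference. Of 26 microRNA genes linked to differentiation, 4 had a Spt16 region (15.4%, against the same 3.91%), from 3 regions: Mir296, Mir10b (44354 bp away, 32 reads), and Mir145 and Mir143 (10208 and 11563 bp from the same region, 28 reads). Mir296 also had an Oct4 region, 1 of 26 (3.85%, against 0.57%). The 11 let-7 genes on that list had none.

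Among 21 genes of microRNA processing and action, 3 had a Spt16 region within 50 kb (14.3%, against 7.14% of 21900 protein-coding genes). They were Ago1 and Ago3, which encode Argonaute proteins and share a region of 39 reads against 0, 2682 bp from Ago1 and 36396 bp from Ago3, and Trim71, a let-7 target and stem cell regulator, 20275 bp from a region of 38 reads. Tarbp2, a partner of Dicer, had an Oct4 region 48241 bp away (15 reads against 0), and no Spt16 region; of protein-coding genes, 1.42% had an Oct4 region and 0.132% a Jmjd1c region. Drosha, Dgcr8, Dicer1, Lin28a and Lin28b had no region in any list. Of 12 reported targets of the miR-290 family, 2 had a Spt16 region (16.7%) and none an Oct4 or Jmjd1c region. Lats2, a Hippo pathway kinase, lay 25448 bp from a region of 70 reads against 3, and Cdkn1a, the cell cycle inhibitor p21, 47089 bp from one of 26 reads against 0. Among genes listed as chromosome 7 neighbors, Spt16 regions within 50 kb lay at 3 places. These were the cluster (Nlrp12 and AU018091), the region near Cacng7 and Cacng8, and a region of 70 reads against 2 near Oscar, Ndufa3, Tarm1, Tfpt and Prpf31. AU018091 was named by the Mir290 region only, 49291 bp away. None of these named neighbors had an Oct4 or Jmjd1c region.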

How the data were processed

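ChIP-seq libraries for Oct4, Spt16 and Jmjd1c and an input, all at 10 h, were used, with groups taken from their titles. CASAVA 1.4, Bowtie and mm9 are named in the submitters' processing notes, and no source used here gives the region caller. Per the file headers, the authors called regions against the 10 h input at a log2 ratio of 1 and a Q value score of 13. The deposited counts are whole reads per strand in the best window of each region and both strands were added together. The authors' log2 value compares ChIP reads scaled to the input total with input reads, with 1 added to each. The authors' score is read as a negative log10 of a binomial p-value, multiplied by a constant; that scale was inferred from the values and the threshold. Rank numbers ran to 1302 for Spt16, so 49 were absent.

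Reads were scaled to library totals (RPM). Where the input was at 0, the fold was taken against 3 input reads; otherwise the RPM ratio has an exact (Clopper-Pearson) 95% interval. PCR copies were not marked by molecular identifiers. Regions shared by lists overlap by at least 1 bp. Gene symbols were matched to RefSeq (GRCm38.p6) for names and sequences only. Members and gene lists were chosen with earlier results of these data known. Named genes were the members, other microRNAs with a region and genes of the fixed lists that had a region (at most 10 a list, by score). Named after their values were seen were Mir92b, Mir150, mmu-mir-703, Malat1, Hist1h1d, Pou5f1, Sox2 and the U1, U4 and U5 genes. The same holds for genes named as having no region. The alternatives were other folds, orderings, thresholds, distances and overlap rules. The count of chromosome 7 neighbors with a region is not reported here. Code was tested on simulated data. Python 3.11.15, numpy 2.4.6, pandas 2.3.3, scipy 1.17.1 and matplotlib 3.10.9 were used.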

Additional observations from a re-analysis of the deposited data

How the results depend on the processing

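The number of Spt16 regions naming the cluster was 5 by name, within 5 kb of a gene start and within 50 kb of the span, and 3 in the higher-scoring part of the list, which leaves out the regions beyond Mir295. The Oct4 and Jmjd1c counts and overlaps were 0 under every alternative run (score, distance and overlap rules). On the authors' scale, with 1 added to both counts, the folds were 26.1, 9.65, 19.3, 12.1 and 11.7 in order along the cluster. The list was also ordered by ChIP reads, reads per kb and, added after seeing the data, the authors' log2 ratio. The members' percentile moved beyond the interval set around it in 14 of 15 cases. A percentile is a rank in a fixed list, so that interval is a yardstick and not a counting error. The widest move was at the Mir291b region, where 68.3% of regions had a lower score but 24.6% a lower log2 ratio; its single input read is the difference from the Mir293 region.

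Within 5 kb, the microRNA genes with a region were 12 for Spt16, 7 of them in the cluster (49 within 50 kb), 0 for Oct4 (7) and 0 for Jmjd1c (1). In the higher-scoring part they were 26 for Spt16, 5 for Oct4 and 0 for Jmjd1c. Of the 91 genes of the 5 lists, 19 had a Spt16 region and 2 an Oct4 region within 50 kb. The counts were 1 and 0 within 5 kb, and 12 and 1 in the higher-scoring part. No share over all genes was worked out within 5 kb or in the higher-scoring part, so the counts there are not read as a result. Over all genes, 7.14% of protein-coding and 3.91% of microRNA genes had a Spt16 region within 50 kb, and 1.42% and 0.57% an Oct4 region. The 19 take in chromosome 7 neighbors, some named by the member regions themselves, so they are not compared with those shares. The ratio of Spt16 to Oct4 and its scaling were not run at the members, nor was the search for regions most like a member, since no member was in both lists. No paired analysis was possible because each group held 1 library. Depth limits the regions beyond Mir295 most, at 1 and 2 reads above the lowest count listed with 0 input reads.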
